A study of Mus musculus with 45 samples.

Results

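The nuclear factor I genes Nfia, Nfib, Nfic and Nfix were followed through 30 RNA-seq libraries of 2 mouse tumour cell lines. They were found as the rows of the deposited tables that carry these 4 gene symbols, 4 of the 55335 genes measured. The family was picked because of the level of Nfix in CT26 cells given the compound named stk against CT26 cells given DMSO, so that comparison is described for all 4 genes and carries no test. The libraries form 10 groups of 3, and each stk group holds 3 of its 6 labelled samples, the other 3 having no column matched by name here. Wild-type (WT) CT26 cells, a colon carcinoma line, and WT Hepa1-6 cells, a liver line, were each exposed for 48 h to stk or to the solvent DMSO. In untreated knockdown lines, harvested 24 h after seeding, CT26 carried 1 of 3 hairpins against SOAT1 (sh1, sh2 or sh3) or the control hairpin shLucif, and Hepa1-6 carried a scramble hairpin or shLucif. The labels do not say what stk is, whether a knockdown line is a single clone or a pool, or whether replicates were separate cultures, so p-values measure the spread between these libraries, which may be technical. Because these are bulk libraries, fewer cells of a type and less RNA per cell cannot be told apart.

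Nuclear factor I proteins bind DNA as dimers through a conserved amino-terminal domain, at a palindrome built from TTGGC and its reverse complement GCCAA, and also at a single copy of either. They can activate or repress transcription, and alternative splicing and alternative start sites give each gene several protein forms. Nfia and Nfib are known for their part in glial and brain development and Nfib also in lung maturation, Nfic for tooth root formation, and Nfix for neural and muscle stem cells and for the switch from embryonic to fetal muscle. In the liver, nuclear factor I binding has been described at the control regions of albumin and alpha-fetoprotein.

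All 4 are protein-coding genes. On the GRCm38 build with GENCODE M21 gene models, Nfix (ENSMUSG00000001911) lies on chromosome 8 from 84699876 to 84800344 on the minus strand, and Nfic (ENSMUSG00000055053) on chromosome 10 from 81396186 to 81455635 on the minus strand. Chromosome 4 carries both Nfia (ENSMUSG00000028565, 97772734 to 98118874, plus strand) and Nfib (ENSMUSG00000008575, 82290173 to 82705750, minus strand). Nfix has 8 annotated transcripts, of which the 5 coding ones run from 1403 to 5476 bases, a ratio of 3.90. Its coding transcripts begin at several places, which is why the sequences before its start sites are shown next, with the start of Nfic for comparison. The table of RefSeq (GRCm38.p6) promoter windows used here gave 4 windows for Nfix and 1 each for Nfic and Nfia. Of the 5 coding Nfix transcripts, 3 (Nfix-201, Nfix-202 and Nfix-205) begin between 84800024 and 84800344, at least 19.9 kb from the start site of any of these windows, so the sequence before them is not shown.

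The windows hold the 250 bases before each start site and are printed 5′ to 3′ on the strand of the gene, here the minus strand. Capitals mark the motifs searched on both strands. They were the nuclear factor I site TTGGC or GCCAA, the AP-1-like pattern TGANTCA, the SREBP element TCACNCCAC and the GC box GGGCGG. The GC box is bound by Sp factors. In TGANTCA any middle letter counts, where the AP-1 consensus has C or G.
Nfix start 1, chr8:84780083-84780332: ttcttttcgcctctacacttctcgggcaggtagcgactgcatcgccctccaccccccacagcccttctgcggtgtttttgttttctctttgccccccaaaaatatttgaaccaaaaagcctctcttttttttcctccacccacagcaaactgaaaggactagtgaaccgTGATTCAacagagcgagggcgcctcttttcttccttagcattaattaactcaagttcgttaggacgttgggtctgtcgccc
Nfix start 2, chr8:84775829-84776078: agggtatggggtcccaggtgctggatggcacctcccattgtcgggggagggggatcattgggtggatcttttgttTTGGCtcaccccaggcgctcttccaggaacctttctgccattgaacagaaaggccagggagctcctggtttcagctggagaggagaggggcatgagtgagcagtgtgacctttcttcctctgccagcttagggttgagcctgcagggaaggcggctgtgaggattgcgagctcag
Nfix start 3, chr8:84773411-84773660: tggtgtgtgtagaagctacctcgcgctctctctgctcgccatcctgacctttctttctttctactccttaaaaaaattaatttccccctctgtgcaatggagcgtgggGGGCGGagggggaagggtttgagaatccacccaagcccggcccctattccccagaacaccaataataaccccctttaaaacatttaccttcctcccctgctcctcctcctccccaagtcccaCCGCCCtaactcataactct
Nfix start 4, chr8:84772876-84773125: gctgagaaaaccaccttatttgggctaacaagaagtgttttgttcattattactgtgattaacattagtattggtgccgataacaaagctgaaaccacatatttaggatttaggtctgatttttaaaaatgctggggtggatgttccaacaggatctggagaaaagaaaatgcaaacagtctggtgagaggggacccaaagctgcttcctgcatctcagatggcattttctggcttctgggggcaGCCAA
Nfic start, chr10:81427174-81427423: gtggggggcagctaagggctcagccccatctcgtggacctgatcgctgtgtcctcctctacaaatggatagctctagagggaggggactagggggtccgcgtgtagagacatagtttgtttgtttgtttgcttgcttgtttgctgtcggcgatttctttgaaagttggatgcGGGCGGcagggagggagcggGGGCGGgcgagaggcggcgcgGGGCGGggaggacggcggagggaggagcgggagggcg

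The 4 Nfix windows do not share a motif set. Start 1, 5713 bases from the nearest annotated beginning of a coding transcript, has an AP-1-like match 81 bases before the start site. Its letters, TGATTCA, have T in the middle, unlike the AP-1 consensus. The pattern with any middle letter was found in 6.75% of the 32851 promoter windows of the same table. Starts 2 and 4, 1459 and 521 bases from the nearest such beginning, have 1 TTGGC or GCCAA site each, 175 and 5 bases before the start, and 41.5% of all windows hold one. Start 3 lies 14 bases from the annotated beginning of the longest coding transcript, Nfix-204 (5476 bases), and has GC boxes 142 and 20 bases before it. The Nfic window ends at the annotated beginning of Nfic-201 and has 3 GC boxes, 78, 58 and 37 bases before it, a motif found in 32.7% of all windows. None of the 6 windows of the family holds the full palindrome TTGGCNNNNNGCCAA, which occurs in 0.0365% of all windows, or the SREBP element, which occurs in 1.05%. The Nfia window, not printed here, has its start site 190791 bases from the nearest annotated beginning of a coding Nfia transcript. GC content was 49.2%, 58.4%, 52.4% and 42% in Nfix starts 1 to 4 and 63.2% in the Nfic window, beside a median of 52.4% over all windows. These matches are letters in a window and carry no measure of binding.

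Levels are FPKM (fragments mapped to a gene, divided by its length and by the mapped fragments of the library), as the authors deposited them in 1 table for each experiment. Libraries in the drug table held 11228 to 11407 genes at 1 FPKM or more, and knockdown libraries held 11159 to 11555. Read totals are unknown, so no counting interval is given. The Hepa1-6 libraries from DMSO, stk and scramble expressed 7 of 15 hepatocyte markers at a mean of 1 FPKM or more. In all CT26 groups only 1 of 15 reached that level. The CT26 libraries had all 10 mesenchymal markers at that level, but only 1 to 3 of 10 colon epithelium markers, and Epcam was listed at 0 in each group except sh3, where it averaged 0.0099 FPKM. The leukocyte markers summed to at most 8.36 FPKM in any library. The 3 libraries labelled Hepa1-6 shLucif went against their label: their hepatocyte markers summed to 67.2 to 75.5 FPKM, against 386 to 428 FPKM in the other Hepa1-6 control libraries (DMSO and scramble), and their Soat1 level was 12.7 to 13.6 FPKM, against at most 0.182 FPKM there. In CT26 the knockdown was visible, with Soat1, the enzyme that esterifies cholesterol, at 3.27, 3.47 and 2.59 FPKM in sh1, sh2 and sh3 against 19.9 FPKM in shLucif.

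Nfic was the most abundant member per length in every group. Its share of the summed FPKM of the 4 genes averaged between 60.7% in Hepa1-6 DMSO and 81.3% in CT26 DMSO. Nfix and Nfib followed at a few FPKM each, and their order changed from group to group. Nfia stayed between 0.17 and 0.828 FPKM in all 30 libraries, below the minimum of 1 FPKM in 3 libraries that a gene needed to be tested. The other members, 3 in number, therefore entered the tests, and Nfia is given by its values alone.

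Within the drug table Nfix averaged 8.82 ± 0.0486 FPKM in CT26 stk, 5.30 ± 1.03 in Hepa1-6 stk, 3.46 ± 1.78 in Hepa1-6 DMSO and 3.12 ± 0.135 in CT26 DMSO (SD, n = 3 each). The CT26 stk libraries lay above all others. Hepa1-6 stk overlapped with Hepa1-6 DMSO, which in turn overlapped with CT26 DMSO. Within the knockdown table Nfix averaged 8.79 ± 1.18 FPKM in the libraries labelled Hepa1-6 shLucif, 5.45 ± 2.73 in sh3, 3.44 ± 1.66 in sh1, 2.76 ± 0.233 in scramble, 1.57 ± 0.0901 in CT26 shLucif and 1.46 ± 0.103 in sh2 (SD, n = 3 each). In that order sh3 overlapped with sh1, sh1 with scramble, and CT26 shLucif with sh2, while the other neighbours were apart.

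**Figure D1:**
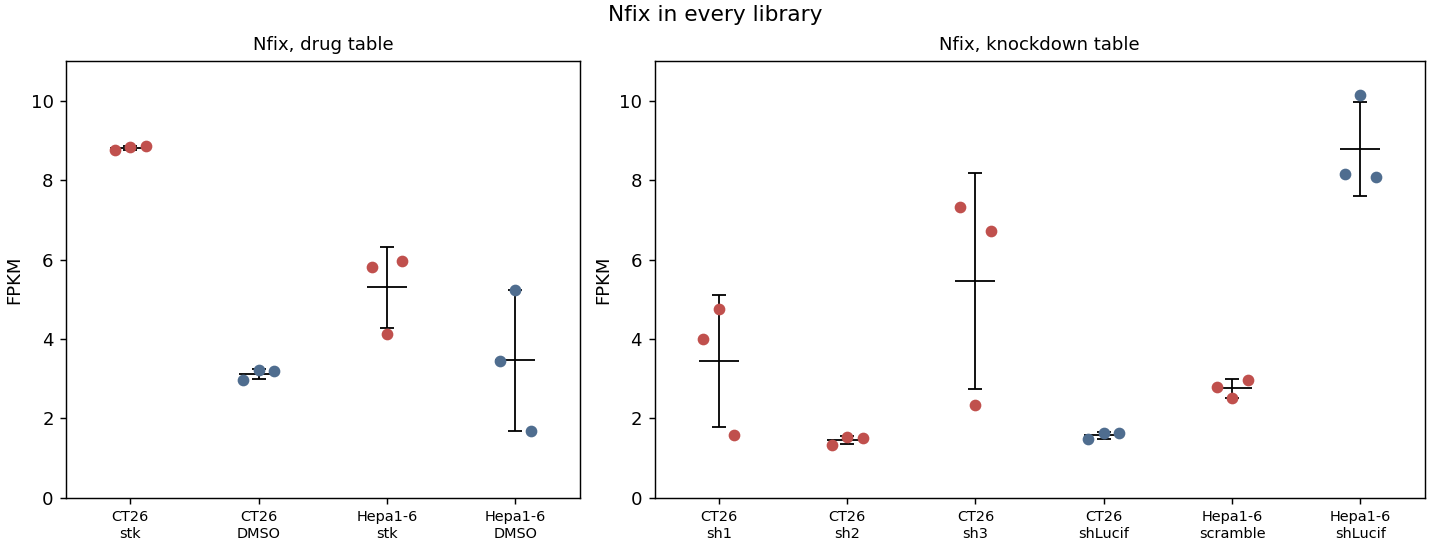
Nfix level in FPKM (vertical axis) in each of the 12 libraries of the drug table and the 18 of the knockdown table, by group. Points are libraries, red for stk, Soat1 hairpins and scramble and blue for their controls, and bars give the mean ± SD of 3 libraries. The CT26 stk libraries sit tightly at 8.77 to 8.86 FPKM, while Hepa1-6 DMSO, sh1 and sh3 each have an SD of 1.66 FPKM or more.

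In CT26 cells the comparison of stk with DMSO asks which genes respond to the compound, and Nfix was picked from it. Nfix stood at 8.77, 8.83 and 8.86 FPKM in the stk libraries, against 2.96, 3.21 and 3.18 FPKM in the DMSO libraries. The groups were far apart and each was narrow, a ratio of means of 2.83 and a log2 fold change of 1.25 on FPKM + 1 (SE 0.05). By absolute log2 fold change it ranked 13 among the 11358 genes tested. Over all of these genes limma called 85, or 0.748%, at a Benjamini-Hochberg adjusted p under 0.05, a share given for orientation only.

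The other 3 genes moved little in the same CT26 libraries. Nfic was at 30.6, 32.2 and 29.5 FPKM with stk and at 29.0, 28.3 and 29.5 FPKM with DMSO, a log2 fold change of 0.08 (SE 0.04). The lowest stk library and the highest DMSO library were nearly level. Nfib had 3.66, 2.87 and 3.24 FPKM with stk and 2.78, 2.96 and 3.13 FPKM with DMSO, with overlapping groups and a log2 fold change of 0.10 (SE 0.09). Nfia had 0.746, 0.617 and 0.681 FPKM with stk, just above its 0.558, 0.579 and 0.607 FPKM with DMSO. With Nfix raised, its share of the summed FPKM of the family was 20.3 ± 0.607% with stk and 8.77 ± 0.384% with DMSO, and the share of Nfic was 70.7 ± 1.45% with stk and 81.3 ± 0.75% with DMSO (SD, n = 3 each).

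Hepa1-6 cells received the same 2 treatments in libraries that played no part in the choice of the family, so a test is given there. None of the 3 tested members was called, and none had an unadjusted p under 0.05, where limma called 1.53% of 11426 genes. Nfix was at 5.81, 4.12 and 5.97 FPKM with stk and at 3.45, 5.24 and 1.69 FPKM with DMSO. The means differed in the direction seen in CT26, but 1 DMSO library was above the lowest stk library. The log2 fold change was 0.57 (SE 0.30, limma, Benjamini-Hochberg adjusted p = 0.3021). It was 0.24 without DMSO replicate 3 and 0.85 without DMSO replicate 2, and it was called in none of the 6 fits that left out 1 library (adjusted p from 0.1749 to 0.5435). Whether the response of Nfix differs between the lines was not tested, since the CT26 value chose the gene.

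Nfic reached 13.8, 14.5 and 14.1 FPKM in Hepa1-6 stk, all just above the 13.2, 8.85 and 13.7 FPKM of Hepa1-6 DMSO. A single DMSO library was low, and the difference of 0.25 on the log2 scale (SE 0.15) had an adjusted p of 0.3503 in limma. Without that library it was 0.07 (adjusted p = 0.5036). That library, DMSO replicate 2, was also the one with the most Nfix of its group, so Nfix and Nfic moved in opposite directions there. Nfib had 3.33, 3.56 and 2.30 FPKM with stk and 3.11, 3.65 and 3.45 FPKM with DMSO, groups that overlapped (log2 fold change -0.13, SE 0.13, limma adjusted p = 0.5856). Nfia ranged from 0.679 to 0.819 FPKM with stk and from 0.754 to 0.790 FPKM with DMSO.

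Nfix sits in a gene-rich stretch, which allows a look at whether the rows around it behaved alike under stk. Within 100 kb lie 13 protein-coding genes, and 2 of them, Lyl1 and G430095P16Rik, overlap Nfix on the opposite strand. Trmt1, a tRNA methyltransferase gene, ends 68 bases from Nfix. In CT26 stk against DMSO 10 of the 13 were tested, among them Trmt1, Nacc1, Farsa, Gcdh, Calr, Gadd45gip1 and Cacna1a, and none was called by limma. An unadjusted p under 0.05 was found for 3, all 3 higher with stk, beside 14.6% of all genes tested. Among the 10 tested, the immediate early gene Ier2 had the highest value, a log2 fold change of 0.25 (SE 0.06, limma adjusted p = 0.1667). G430095P16Rik had 0.07 (SE 0.11, limma adjusted p = 0.8233). Lyl1 was under the minimum. In Hepa1-6 stk against DMSO 9 were tested, with Dand5 in place of Cacna1a and G430095P16Rik, and none was called by limma. There 4 had an unadjusted p under 0.05, all 4 higher with stk, beside 23.8% of all genes. The sources used here do not state whether counting used strand. Without strand, reads from exon bases that Nfix shares with an overlapping gene could not be told apart. How far their exons overlap was not examined.

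CT26 and Hepa1-6 cells under DMSO differed at most genes, with 76.8% of 12822 genes called by limma, and of the 3 tested members only Nfic was called. Nfic was at 29.0, 28.3 and 29.5 FPKM in CT26 DMSO, against 13.2, 8.85 and 13.7 FPKM in Hepa1-6 DMSO. No library of one line came near the other, and the log2 fold change was 1.23 (SE 0.12, limma adjusted p = 2.457e-06). Nfix averaged 3.12 FPKM in CT26 and 3.46 FPKM in Hepa1-6, with the CT26 libraries inside the wide Hepa1-6 range of 1.69 to 5.24 FPKM (log2 fold change -0.03, SE 0.24, limma adjusted p = 0.9071). The CT26 DMSO libraries also took part in picking Nfix, and the model drew its spread from CT26 stk too. For Nfix this comparison is therefore a description and its p-value is no independent test. Without Hepa1-6 DMSO replicate 2 the Nfix difference was 0.25, and without replicate 3 it was -0.36, neither called. Nfib averaged 2.96 FPKM in CT26 and 3.40 FPKM in Hepa1-6, with overlapping groups (log2 fold change -0.15, SE 0.11, limma adjusted p = 0.2414). Nfia was at 0.558 to 0.607 FPKM in CT26 and at 0.754 to 0.790 FPKM in Hepa1-6, without overlap.

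The next question is how the family in CT26 lines with a hairpin against SOAT1 differed from that in the shLucif line. Nfic was higher with sh3 and, less firmly, with sh1, and Nfix was higher with sh3. The 3 hairpin comparisons share the same shLucif libraries, so they are not independent of each other. In each of them a large part of the transcriptome differed, so a call of a single gene is common here. Of 11832 genes, limma called 37.8% with sh1, 38.9% with sh2 and 52.5% with sh3. Whether these differences come from the hairpin or from the line that carries it was not tested.

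With sh3, 2 of the 3 tested members rose. Nfic was at 19.7, 18.2 and 18.0 FPKM in the sh3 libraries and at 9.22, 5.90 and 8.68 FPKM in the shLucif libraries. Every sh3 library was far above the highest control, with a log2 fold change of 1.16 (SE 0.13, limma adjusted p = 2.722e-05). By absolute log2 fold change Nfic ranked 202 among the 11832 genes and Nfix ranked 163. Nfix was at 7.33, 2.33 and 6.71 FPKM in sh3 and at 1.47, 1.62 and 1.63 FPKM in shLucif. All sh3 libraries were above all controls, but sh3 replicate 2 was far below the other two. The log2 fold change was 1.22 (SE 0.34, limma adjusted p = 0.01101), and it was called in each of the 6 fits that left out 1 library (adjusted p from 0.0006217 to 0.04843).

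Nfib and Nfia were also a little above their controls in all sh3 libraries. Nfib was at 3.21, 3.03 and 3.24 FPKM in sh3 and at 2.36, 2.89 and 2.74 FPKM in shLucif, a log2 fold change of 0.19 that was not called (SE 0.10, limma adjusted p = 0.13). Nfia was at 0.396, 0.422 and 0.383 FPKM in sh3 and at 0.179, 0.227 and 0.251 FPKM in shLucif, a ratio of means of 1.83 between levels under the minimum for testing. The summed FPKM of the 4 genes was 27.7 ± 3.4 in sh3 and 12.4 ± 1.51 in shLucif (SD, n = 3 each). The mesenchymal markers also stood apart in sh3, summing to 888 to 978 FPKM against 637 to 648 FPKM in shLucif, with all 10 at a mean of 1 FPKM or more in both groups. The colon epithelium markers summed to 43.1 to 47.4 FPKM in sh3, with 3 of 10 at that level and Lgr5 listed at 0, against 24.2 to 24.3 FPKM in shLucif, with 2 of 10 at that level and Cdx1, Epcam and Lgr5 listed at 0. The hepatocyte markers summed to 8.92 to 9.33 FPKM in sh3 and to 5.77 to 6.99 FPKM in shLucif, with 1 of 15 at that level and Alb listed at 0 in both groups. The leukocyte markers summed to 5.43 to 5.72 FPKM in sh3 and to 6.85 to 7.32 FPKM in shLucif, with 1 of 6 at that level. The part of these markers in the Nfic and Nfix values was not tested.

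**Figure D2:**
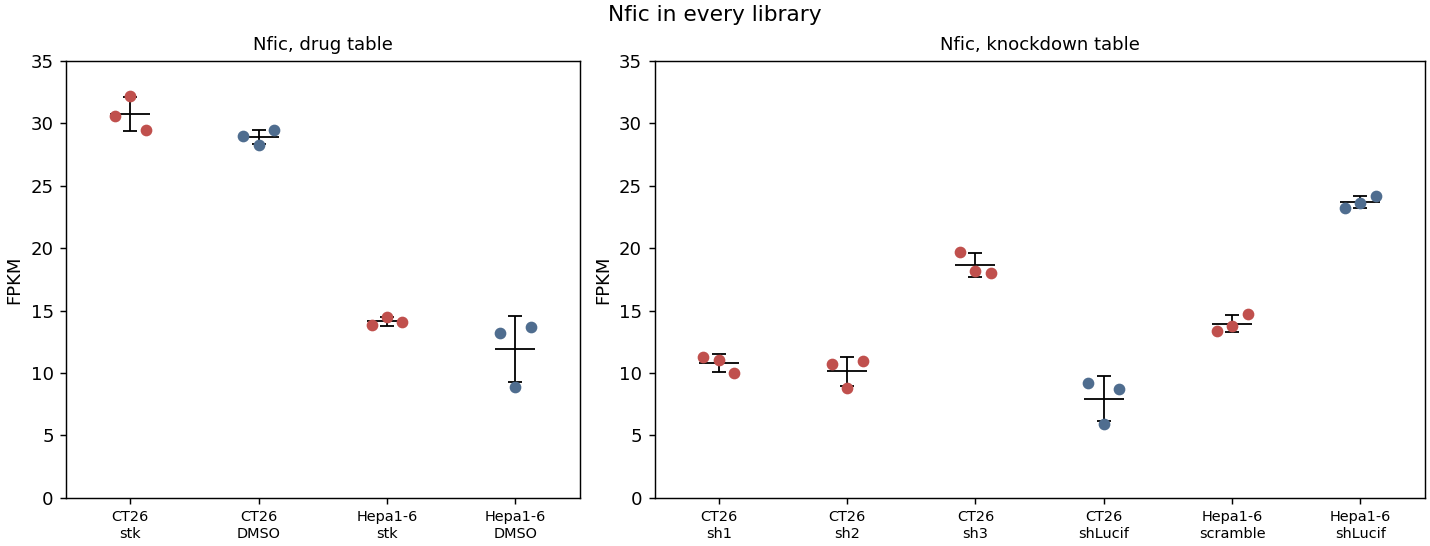
Nfic level in FPKM (vertical axis) in each library of the drug table and the knockdown table, by group, with points for libraries (red for stk, Soat1 hairpins and scramble, blue for controls) and bars for the mean ± SD of 3 libraries. The 3 sh3 libraries, at 18.0 to 19.7 FPKM, lie above every sh1, sh2 and shLucif library of CT26.

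With sh1, 1 of the 3 tested members, Nfic, was called. Nfic was at 11.3, 11.1 and 9.98 FPKM, above the 9.22, 5.90 and 8.68 FPKM of shLucif, a log2 fold change of 0.42 (SE 0.13, limma adjusted p = 0.02714). The call rested on the full set of libraries: the adjusted p was 0.06334 without shLucif replicate 2, where the log2 fold change was 0.24, and 0.0783 or 0.07203 without either of the 2 sh1 libraries with the most Nfic. Nfix divided the sh1 libraries, at 4.00, 4.75 and 1.58 FPKM, against 1.47, 1.62 and 1.63 FPKM in shLucif. A pair of sh1 libraries was well above the controls and the other lay among them, and the log2 fold change of 0.71 was not called (SE 0.34, limma adjusted p = 0.1279). Without the low sh1 library it was 1.06 (adjusted p = 0.02456). Nfib was at 2.51, 1.75 and 2.31 FPKM in sh1, lower on average than in shLucif but overlapping with it (log2 fold change -0.21, SE 0.10, limma adjusted p = 0.1193).

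With sh2 none of the 3 tested members was called by limma, and 1, Nfic, had an unadjusted p under 0.05. Nfix was at 1.34, 1.52 and 1.51 FPKM, level with the 1.47, 1.62 and 1.63 FPKM of shLucif. No sh2 library showed the higher level seen in sh1 and sh3 (log2 fold change -0.07, SE 0.34, limma adjusted p = 0.8961). The SE of Nfix pools the spread of all CT26 knockdown groups, here and with sh1 and sh3. Its SD of log2(FPKM + 1) was 0.06 in sh2 and 0.05 in shLucif, but 0.62 in sh1 and 0.73 in sh3. Nfic was at 10.7, 8.78 and 10.9 FPKM, overlapping with shLucif, a log2 fold change of 0.33 (SE 0.13, limma adjusted p = 0.067). That value passed the threshold without shLucif replicate 1 (adjusted p = 0.02971) or without sh2 replicate 2 (adjusted p = 0.04116). Without shLucif replicate 2 the log2 fold change was 0.16 (adjusted p = 0.2111), and the other 3 fits that left out 1 library gave adjusted p from 0.05937 to 0.1793. Nfib was at 2.38, 2.91 and 2.44 FPKM, overlapping with shLucif (log2 fold change -0.03, SE 0.10, limma adjusted p = 0.8099). Nfia ranged from 0.17 to 0.27 FPKM in sh1 and from 0.216 to 0.300 FPKM in sh2, both overlapping with the 0.179 to 0.251 FPKM of shLucif.

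The mean of the 3 hairpins set against shLucif called Nfic alone among the 3 tested members, where 43.1% of genes were called. Nfic averaged 13.2 FPKM over the hairpin groups and 7.94 FPKM in shLucif, a log2 fold change of 0.64 (SE 0.11, limma adjusted p = 0.0006729). Nfix averaged 3.45 FPKM over the hairpin groups and 1.57 FPKM in shLucif, a log2 fold change of 0.62 that missed the threshold (SE 0.28, limma adjusted p = 0.09589). It passed without the low sh1 library (adjusted p = 0.0274) or without the low sh3 library, replicate 2 (adjusted p = 0.01088). Nfib averaged 2.64 FPKM over the hairpin groups and 2.66 FPKM in shLucif (log2 fold change -0.02, SE 0.08, limma adjusted p = 0.8726).

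The hairpins themselves differed, and the difference was tested directly. Against the mean of sh1 and sh2, sh3 had higher Nfic, Nfix and Nfib, all 3 called where limma called 60.2% of genes. Nfic averaged 18.7 FPKM in sh3 and 10.5 FPKM over sh1 and sh2, with no overlap (log2 fold change 0.78, SE 0.11, limma adjusted p = 0.0001217). Nfix averaged 5.45 FPKM in sh3 and 2.45 FPKM over sh1 and sh2, but the groups overlapped, because the low sh3 library at 2.33 FPKM was under the sh1 libraries at 4.00 and 4.75 FPKM (log2 fold change 0.90, SE 0.29, limma adjusted p = 0.02137). Without sh3 replicate 1 its adjusted p was 0.1127 and without sh3 replicate 3 it was 0.09877. Nfib averaged 3.16 FPKM in sh3 and 2.38 FPKM over sh1 and sh2, without overlap (log2 fold change 0.31, SE 0.08, limma adjusted p = 0.008302), and after quantile normalization the value was 0.20 with an adjusted p of 0.05832. Soat1 itself was also lower in sh3 than in sh1 and sh2, by a log2 fold change of -0.28 (SE 0.04, limma adjusted p = 4.117e-05).

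**Figure D3:**
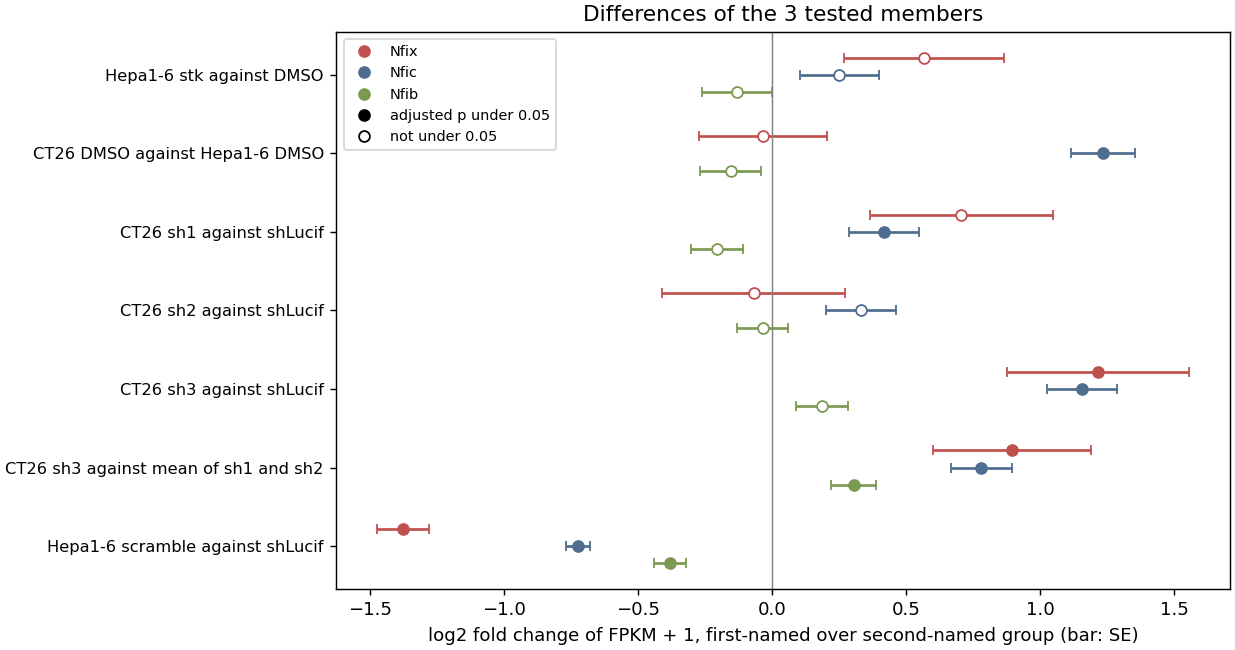
Log2 fold changes of FPKM + 1 (horizontal axis, bars ± SE from limma) of Nfix, Nfic and Nfib in 7 tested comparisons, each the first-named over the second-named group. Filled points had an adjusted p under 0.05. Nfic and Nfix lie to the right with sh3, all 3 lie to the left for scramble against the libraries labelled Hepa1-6 shLucif, and Nfix carries the widest bars of the 3 in each comparison.

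In the Hepa1-6 control lines, all 3 tested members were lower with scramble than in the libraries labelled shLucif, where limma called 68.2% of 12055 genes. Nfix was at 2.79, 2.51 and 2.97 FPKM in scramble and at 8.14, 10.1 and 8.07 FPKM in the libraries labelled shLucif, far apart (log2 fold change -1.38, SE 0.10, limma adjusted p = 1.995e-05). Nfic was at 13.4, 13.7 and 14.7 FPKM in scramble and at 23.3, 23.6 and 24.2 FPKM in the libraries labelled shLucif (log2 fold change -0.72, SE 0.05, limma adjusted p = 1.112e-05). Nfib was at 2.89, 2.95 and 3.28 FPKM in scramble and at 4.38, 4.13 and 4.25 FPKM in the libraries labelled shLucif (log2 fold change -0.38, SE 0.06, limma adjusted p = 0.001219). Nfia averaged 0.66 FPKM in scramble and 0.737 FPKM in the libraries labelled shLucif, with overlap.

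Both hairpins are controls, and the marker lists differed between the groups too. Hepatocyte markers summed to 392 to 428 FPKM in scramble, with 7 of 15 at a mean of 1 FPKM or more, and to 67.2 to 75.5 FPKM in the libraries labelled shLucif, with 4 of 15. Apoc3 and Serpina1a were listed at 0 in all libraries of both groups, and Fga, Fgg and Ttr also in those labelled shLucif. Hnf4a, a hepatocyte transcription factor, averaged 43.2 FPKM in scramble and 5.15 FPKM in the libraries labelled shLucif. Colon epithelium markers summed to 1861 to 1916 FPKM in scramble, with 6 of 10 at a mean of 1 FPKM or more, and to 282 to 296 FPKM in the libraries labelled shLucif, with 5 of 10. Cdx1 was listed at 0 in both groups and Muc2 also in the libraries labelled shLucif. Mesenchymal markers summed to 528 to 574 FPKM in scramble and to 568 to 617 FPKM in the libraries labelled shLucif, with 5 of 10 at that mean level in scramble and 8 of 10 in the libraries labelled shLucif. Leukocyte markers summed to 5.33 to 7.27 FPKM in scramble and to 3.12 to 4.07 FPKM in the libraries labelled shLucif, with 1 of 6 at that level in both. The part of these markers in the nuclear factor I values was not tested. In the same table CT26 shLucif had 1.47 to 1.63 FPKM of Nfix, 5.90 to 9.22 FPKM of Nfic and 2.36 to 2.89 FPKM of Nfib. The libraries labelled Hepa1-6 shLucif were above these and above the scramble libraries for each of the 3 genes. The share of all genes that lie above both groups is not given here, and 68.2% of genes were called between scramble and the libraries labelled Hepa1-6 shLucif.

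**Figure D4:**
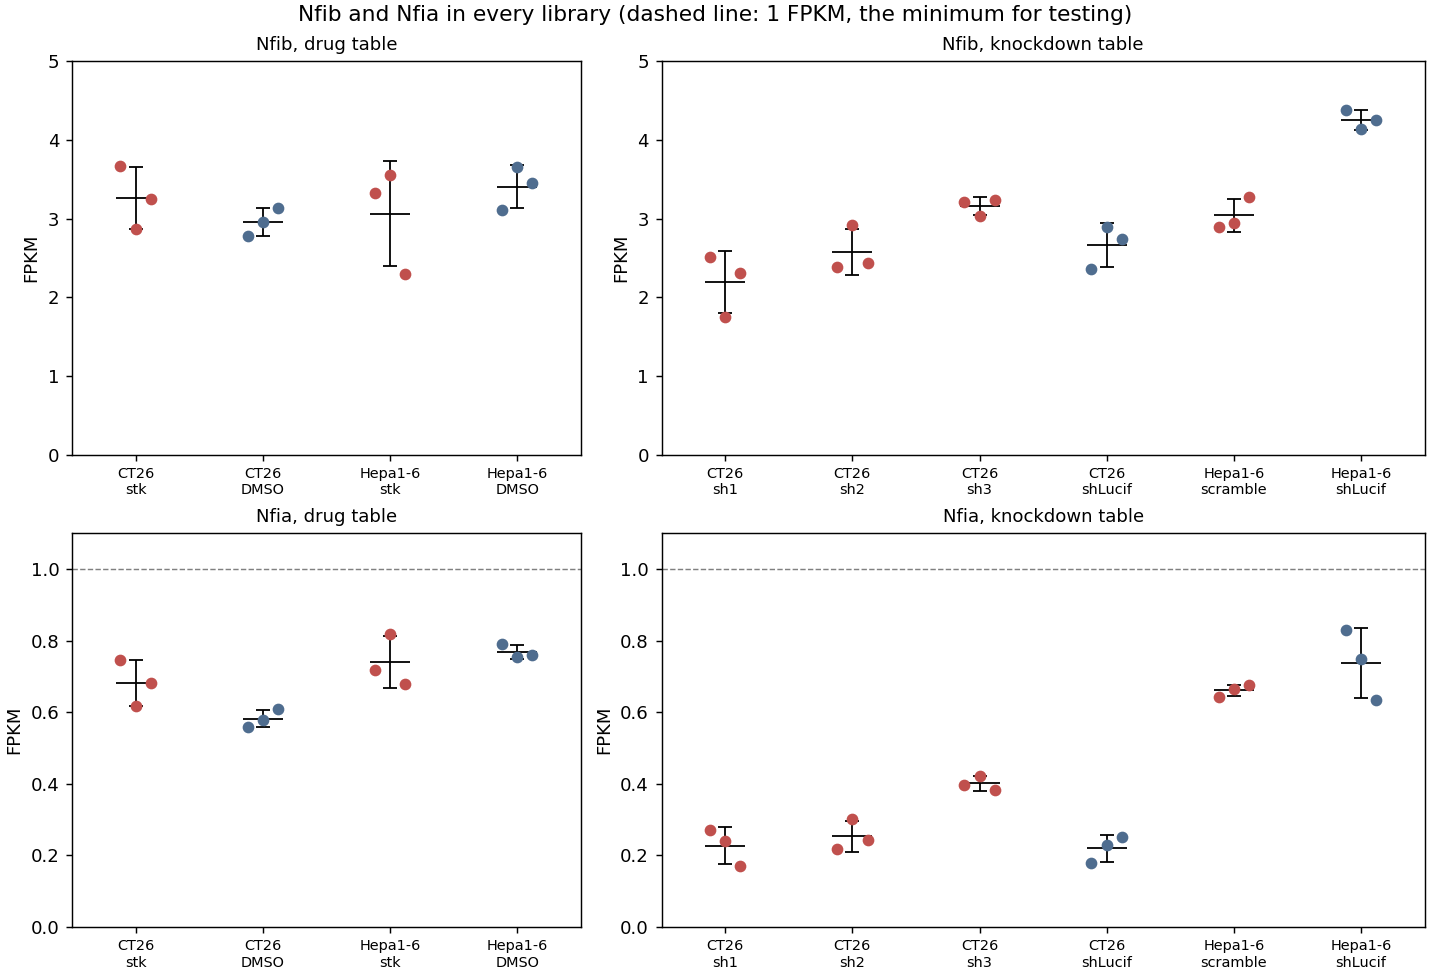
Nfib (top) and Nfia (bottom) levels in FPKM (vertical axes) in each library of the drug and knockdown tables, by group, with points for libraries (red for stk, Soat1 hairpins and scramble, blue for controls) and bars for the mean ± SD of 3 libraries. Nfib stays between 1.75 and 4.38 FPKM, and Nfia stays below the dashed line at 1 FPKM in every library.

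Genes known from other tissues as targets of nuclear factor I proteins were followed from a list of 32, and 11 of them (14 where both lines or the Hepa1-6 hairpins were compared) were expressed enough to be tested. None of the 11 was called by limma with stk in CT26 or in Hepa1-6, and 3 in CT26 and 1 in Hepa1-6 had an unadjusted p under 0.05, beside 14.6% and 23.8% of all genes in these comparisons. With sh3, 7 rose and 1 fell, a called share of 72.7% beside 52.5% of all genes tested. The median log2 fold change of the targets was 0.25, against 0.04 over all genes. Here and below, such shares were not tested against each other. Cdh2, the gene of N-cadherin, averaged 17.6 ± 0.139 FPKM in sh3 and 9.41 ± 0.981 FPKM in shLucif (SD, n = 3 each; log2 fold change 0.84, limma adjusted p = 1.239e-06). Apcdd1, which encodes a membrane inhibitor of Wnt signalling, averaged 2.76 ± 0.132 FPKM in sh3 and 1.47 ± 0.0255 FPKM in shLucif (SD, n = 3 each; log2 fold change 0.61, limma adjusted p = 6.378e-06). The fetal serum protein gene Afp rose by 0.48, and Zcchc24 fell by 0.27, both on the log2 scale (limma adjusted p = 0.0003486 and 0.000708).

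With sh1, 3 of these targets rose and 5 fell (median log2 fold change -0.17), and with sh2, 4 rose and 6 fell (median -0.18). The medians over all genes were 0.00 and -0.01. The called shares were 72.7% with sh1 and 90.9% with sh2, beside 37.8% and 38.9% of all genes. Bbx, an HMG-box gene, fell with both, by 0.77 with sh1 and by 0.73 with sh2 on the log2 scale (limma adjusted p = 0.0003349 and 0.0004598). Hes1, a Notch target gene, and Col1a2, a collagen chain gene, also fell with both. Apcdd1 fell with both too, by 0.23 with sh1 and by 0.27 with sh2, on the log2 scale, and it rose with sh3. Col1a2 also rose with sh3, by 0.25 on the log2 scale (limma adjusted p = 0.000138), against falls of 0.23 with sh1 and 0.28 with sh2. The genes that rose were Klf4, a pluripotency factor gene, Afp and Cdh2 with sh1, and Klf4, Afp and the cell cycle inhibitor gene Cdkn1a the most with sh2. Klf4 rose by 0.40 with sh1 and by 0.36 with sh2 on the log2 scale (limma adjusted p = 2.41e-05 and 4.956e-05). Over the mean of the hairpins 3 rose (Cdh2, Klf4 and Afp) and 4 fell (Bbx, Hes1, Zcchc24 and Col1a2). The called share was 63.6%, beside 43.1% of all genes. For sh3 against sh1 and sh2 together it was 81.8%, beside 60.2%. In sh3, set against sh1 and sh2 together, 7 were higher, led by Apcdd1, Cdh2 and Bbx (log2 fold changes 0.86, 0.64 and 0.64), and 2 were lower, Cdkn1a and Zcchc24 (-0.29 and -0.19).

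Between the lines under DMSO, 6 of 14 targets were higher in CT26 and 7 lower, a called share of 92.9% beside 76.8% of all genes. For scramble against the libraries labelled Hepa1-6 shLucif the called share was 85.7%, beside 68.2% of all genes. Between the lines, Col1a2, Zcchc24 and Apcdd1 were higher in CT26 (log2 fold changes 6.41, 3.44 and 1.51). Alb, Afp and the liver and fat differentiation gene Cebpa were lower in CT26 (-7.32, -4.16 and -3.03). Alb was listed at 0 in all CT26 libraries. For scramble against the libraries labelled Hepa1-6 shLucif, 5 of 14 were higher, led by Alb, Afp and Cebpa (5.78, 3.99 and 1.87), and 7 were lower, led by Col1a2, Zcchc24 and Eno3 (-3.99, -3.02 and -1.45). Alb and Afp are also hepatocyte markers, and Col1a2 and Cdh2 are also mesenchymal markers in the lists used here.

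Partners and upstream regulators of the family formed a list of 13, of which 9 to 11 were tested in each comparison. None was called by limma with stk in either line, and 2 in CT26 and 0 in Hepa1-6 had an unadjusted p under 0.05, beside the same shares of all genes. With sh3, 4 rose and 3 fell, 70% of those tested beside 52.5% of all genes. Foxa1, a pioneer factor that binds nuclear factor I proteins in human prostate cells, averaged 9.24 ± 0.383 FPKM in sh3 and 5.20 ± 0.457 FPKM in shLucif (SD, n = 3 each; log2 fold change 0.73, limma adjusted p = 9.499e-06). Ski, a corepressor gene, and Pax6, a developmental transcription factor gene, rose by 0.31 and 0.29 on the log2 scale (limma adjusted p = 9.372e-05 and 0.0009573). Sox9, a partner of Nfia in glial development, fell to 4.19 ± 0.391 FPKM in sh3, against 9.55 ± 0.543 FPKM in shLucif (SD, n = 3 each; log2 fold change -1.02, limma adjusted p = 1.03e-05). Rhoa and Junb, known upstream of Nfix in fetal muscle as a negative and a positive regulator, fell by 0.18 and 0.17 on the log2 scale (limma adjusted p = 0.001012 and 0.004145).

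With sh1 none of the partners rose and 4 fell, among them Ski, Junb and Rock1 (log2 fold changes -0.41, -0.24 and -0.23). With sh2, 1 rose, Rhoa (0.10), and 3 fell, among them Ski and Junb (-0.48 and -0.22). The mean of the hairpins had 3 higher (Foxa1, Rock2 and Pax6) and 4 lower, Sox9 and Junb among them. Of these, Foxa1, Rock2, Pax6 and Sox9 were called with sh3 but with neither sh1 nor sh2, while Junb was called with each hairpin. Sox9 had log2 fold changes of 0.19 with sh1 and 0.11 with sh2, and Foxa1 had -0.03 and -0.10. Against the mean of sh1 and sh2, sh3 had 5 higher, with Foxa1, Ski and Rock1 first (0.79, 0.75 and 0.33), and 2 lower, Sox9 and Rhoa (-1.17 and -0.25). Between the lines under DMSO 5 were higher in CT26, among them Pax6 and Foxa1 (1.67 and 0.95), and 5 lower, with Foxa2, Sox9 and Junb last (-4.28, -3.00 and -2.24). For scramble against the libraries labelled Hepa1-6 shLucif 3 were higher (Nr3c1, Junb and Foxa2 at 0.52, 0.47 and 0.36). There, 6 were lower, among them Foxa1 and Rhoa (-2.51 and -0.78). The called shares of partners were 40% with sh1, 40% with sh2 and 70% for the mean of the hairpins. All genes had 37.8%, 38.9% and 43.1%. For sh3 against sh1 and sh2, the lines and scramble, partners had 70%, 90.9% and 90%, beside 60.2%, 76.8% and 68.2% of all genes.

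The protein-coding neighbours of Nfix were also followed under the hairpins. With sh1, 2 of 11 tested neighbours rose and 0 fell, and with sh2, 1 rose (Calr) and 2 fell (Nacc1 and G430095P16Rik). Of all genes, 37.8% were called with sh1 and 38.9% with sh2. With sh3, 3 of 11 tested neighbours rose (Calr, Ier2 and Cacna1a) and 1 fell, where 52.5% of all genes were called. Trmt1 had a log2 fold change of -0.03 with sh3. The opposite-strand gene G430095P16Rik fell with sh2 (log2 fold change -0.35, SE 0.11, limma adjusted p = 0.02809), where Nfix had a log2 fold change of -0.07. G430095P16Rik had a log2 fold change of 0.13 with sh1 and 0.09 with sh3, neither called, and of -1.22 for scramble against the libraries labelled Hepa1-6 shLucif, which was. In that last comparison 1 of 10 tested neighbours was higher and 6 were lower, where 68.2% of all genes were called.

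Nfix differed more between libraries of the same group than most genes did. Its SD of log2(FPKM + 1) within groups, pooled over the 10 groups, was 0.37, larger than that of 97.55% of the 9916 genes tested in all 4 models and of 97.37% of the 4604 genes that averaged 2 to 10 FPKM. The median gene had 0.09, Nfic had 0.16 and Nfib had 0.13. It was widest in 3 groups. The highest Nfix library was 3.11 times the lowest in Hepa1-6 DMSO, 3.01 times in sh1 and 3.15 times in sh3. Of the genes tested, 1.17% were at least as wide in Hepa1-6 DMSO, 1.44% in sh1 and 1.31% in sh3. In the 7 other groups that ratio was between 1.01 and 1.45, and in CT26 stk the libraries differed less than those of 99.26% of the genes did. How the 5 coding transcripts were treated, and which length was used for the FPKM, is not stated in the labels, and their part in these steps was not tested.

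**Figure D5:**
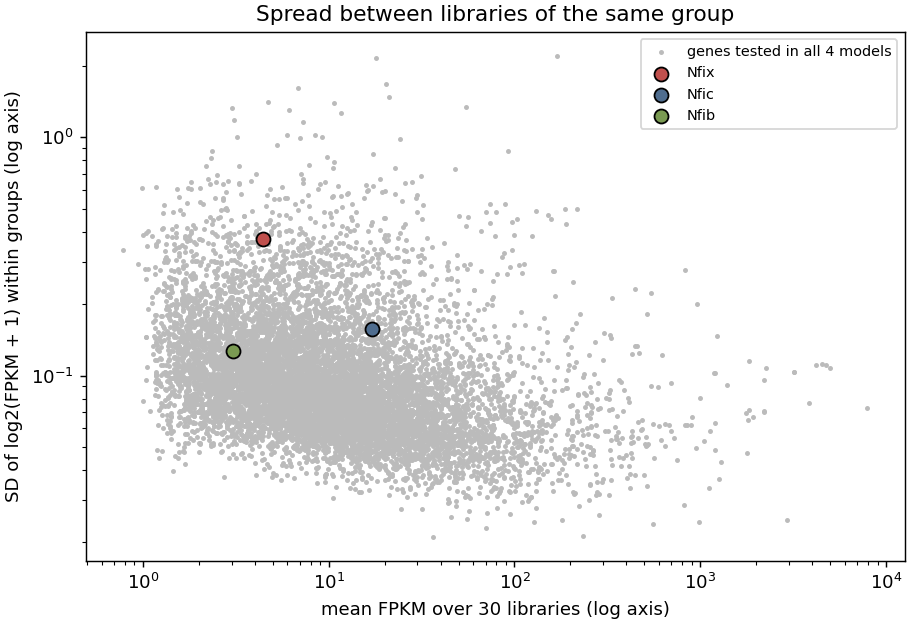
SD of log2(FPKM + 1) within groups (vertical log axis) against mean FPKM over the 30 libraries (horizontal log axis) for 9916 genes in grey, with Nfix in red, Nfic in blue and Nfib in green. Nfix, at 0.37, lies near the upper edge of genes of its level, above Nfic at 0.16 and Nfib at 0.13.

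The genes most like each member were ranked by Pearson's r of log2(FPKM + 1) over the 30 libraries, after each gene's mean within line and table was subtracted, among 8810 protein-coding genes. These r values describe libraries that share groups and treatments and carry no test. Among these libraries are the stk and DMSO libraries of the colon carcinoma line, from which Nfix was picked. The shLucif libraries of the liver line, which went against their label, are also among them. Both sets enter the ranking of Nfix, and a ranking without them is not given here. Nfix was most like Vars, a valyl-tRNA synthetase gene (r = 0.84), E2f1, a cell cycle transcription factor gene (0.83), Kdm3b, a histone demethylase gene (0.82), Slc22a23 (0.78) and the DNA polymerase subunit gene Pold1 (0.78), and least like Mrps30 (-0.80) and Gorab (-0.81). Nfic was most like Dock5 (0.90), Rcor2, Tor4a, Trim47 and Nxn, with r from 0.90 to 0.89, and least like Gnpat and Akirin1 (both -0.90). Nfib was most like Asnsd1 (0.80), with Rfesd, Ncaph and Birc5 among the next genes and r down to 0.75, and least like Trio (-0.78) and Clcn7 (-0.79). Among the members themselves r was 0.62 between Nfix and Nfic, 0.36 between Nfix and Nfib and 0.40 between Nfic and Nfib.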

How the data were processed

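The members, gene lists and comparisons were chosen with earlier results of these data known. The authors deposited FPKM values, 1 table per experiment; per the labels' protocols, total RNA was isolated with TRIzol, libraries (some with the SMARTer kit) were sequenced in pairs on HiSeq and reads were trimmed with Skewer. GRCm38, HISAT2, STAR, DESeq2 and edgeR are listed in the submitters' processing notes; the sources used here give neither versions and roles nor the tool behind the FPKM. Of 45 labelled samples, 30 match a column by name (sh1 columns only as a group) and were used; 21 columns that match no label were left out. Table names were swapped between experiments, so columns decided. The other 15, namely 3 stk samples of each line and the 9 Hepa1-6 Soat1 hairpin samples, were not analysed here.

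Differences of log2(FPKM + 1) were tested two-sided with limma 3.58.1 (R 4.3.3, mean-variance trend), 1 model per line and table, and 1 model of the drug table for the lines. A gene was tested where 3 or more libraries of the model had 1 FPKM or more, and a Benjamini-Hochberg adjusted p under 0.05 over all of them is a call. The pseudocount of 1 shrinks the fold changes of low genes. The fit was also run on simulated data that gave each gene the same spread in every group. The spread of Nfix differed between groups, so nothing about Nfix is drawn from that run. An exact permutation test of 3 against 3 libraries cannot give a p under 0.1 and was not used. Each experiment has 1 batch date, so levels were compared within tables only. Each member is named in every comparison, and of the target and partner lists the 3 highest and 3 lowest called genes; a few genes that enter the counts are not reported by name here; some counts of 5 or fewer are also named in full, and Apcdd1 and Col1a2 were set side by side across hairpins after their values were seen. Of 55335 gene IDs, 55154 are in GENCODE M21; promoter windows are from RefSeq. Alternatives were another pseudocount or minimum, quantile and median-of-ratios scaling, other model samples, a replicate block and leaving out each library. The CT26 and Hepa1-6 shLucif groups were not tested against each other, since the label of the Hepa1-6 group goes against its markers.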

Additional observations from a re-analysis of the deposited data

Results flagged for a closer look

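For 3 genes hairpin sh3 differed from the other hairpins against Soat1 when the difference itself was tested in CT26. The difference between sh3 and the mean of sh1 and sh2, on the log2 scale, was 0.90 for Nfix, 0.78 for Nfic and 0.31 for Nfib (limma, Benjamini-Hochberg adjusted p = 0.02137, 0.0001217 and 0.008302). All 3 sh3 libraries were above all 6 sh1 and sh2 libraries for Nfic and for Nfib. For Nfix 2 of the 3 sh3 libraries were above all 6 and the other one was under 2 of them. In this contrast 60.2% of all genes were called, and the share of all genes without overlap between these libraries is not given here.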

How the results depend on the processing

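Of 391 recomputed values of the 4 genes, 367 counted as unchanged, 8 lost a call and 7 gained one. Another 7 changed sign and 2 moved by more than the spread between libraries. A tested value was unchanged if it kept its direction and its side of the threshold. CT26 stk and Nfia had no test in the main fit, so there unchanged means a move smaller than that spread. The calls of Nfia given below are therefore among the 367. The 7 sign changes came from leaving out 1 library and none was a call: Nfib with stk in Hepa1-6 ran from -0.22 to 0.013 and was positive without stk replicate 3; Nfix between the lines ran from -0.36 to 0.25, positive without Hepa1-6 DMSO replicate 1 or 2; Nfib with sh2 ran from -0.10 to 0.011, positive without shLucif replicate 2 or sh2 replicate 1; and Nfib for the mean of the hairpins ran from -0.080 to 0.027, positive without shLucif replicate 2 or the sh1 library with the least Nfib. Nfix in CT26 stk against DMSO was 1.47 or 1.37 at a pseudocount of 0.1 or 0.5. With no filter on low values 0 members were called with sh1 and 2 between the lines, and Nfia, untested otherwise, was called with sh3 (0.20, adjusted p = 0.004797), against sh1 and sh2 together (0.18, 0.003406) and between the lines (-0.16, 0.04022). With a minimum of 5 FPKM 1 member was called with sh3 and 1 for sh3 set against sh1 and sh2 together. In this last contrast Nfix had an adjusted p of 0.06114 with no filter, and with sh1 Nfic had 0.0765. With sh2 1 member, Nfic, was called with all labelled libraries of the table in 1 model (adjusted p = 0.0333) and with the replicate number as a replicate block (adjusted p = 0.03529). Leaving out 1 library at a time gave 0 to 2 called members with sh1, 0 to 1 with sh2 and 1 to 2 for the mean of the hairpins. Over all genes, CT26 stk called 14 with no filter, 133 at a minimum of 5 FPKM, 204 with all libraries, 4 with the replicate block and 2 to 92 without 1 library, and its share of higher calls was 17.6%, or 30.2% after quantile normalization. Hepa1-6 stk called 4, 473, 928, 4 and 8 to 59 under the same settings. Replicate numbers do not pair these samples (same-numbered libraries had r from -0.0846 to 0.105), so the block is given only here, and it could not be fitted for sh1. Depth is unknown, so low values such as those of Nfia have no counting error here.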
